A study of Homo sapiens with 8 samples.

Results

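The transcripts of 9 surface proteins used as markers of cancer stem cells (CSCs) were read in H460 cells, in CSCs derived from them (H460C) and in cisplatin-resistant H460 cells (H460R). The 9 genes were CD44, ALCAM (CD166), EPCAM, NT5E (CD73), THY1 (CD90), CD55, CD24, PROM1 (CD133) and CD9. They were found through the RefSeq accession of each array probe, which gave 12 probes for 8 of the 9 genes, out of 16557 gene symbols on the array. No probe carried an accession of CD24, and CD24 was not read. PROM1 had 1 probe that was not well above background in any sample. The other 7 genes were measured and tested at 11 probes. H460 (HTB-177) is an established human non-small cell lung cancer line. H460 and H460R cells were kept in RPMI with 10% fetal bovine serum, and H460R cells had survived cisplatin (0.5 µg/mL, over 72 h) and were then cultured without the drug. H460C cells were grown without attachment in DMEM/F12 with glutamine, Hepes, BSA, N2 supplement, EGF and FGF-b. Medium, serum and attachment therefore differ between H460C and the other cells, and their part in any difference cannot be told apart from that of the cell population. From H460C and from H460R, 2 RNA samples were each compared with H460 RNA on a pair of dual-color Agilent arrays that differed in the orientation of the dyes, which made 8 arrays. The study also assayed PROM1, CD44, ALCAM and CD24 by RT-PCR, and those measurements were not used here.

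Surface markers of this kind are used to sort tumor cells that form spheres or tumors, although none of them is restricted to such cells. CD44, ALCAM and EPCAM are adhesion receptors that span the membrane. NT5E, THY1, CD55 and CD24 are held in the outer leaflet of the membrane by a lipid anchor. PROM1 spans the membrane several times and sits on membrane protrusions, and CD9 is a tetraspanin, a small scaffold that gathers receptors into patches. In lung epithelium, EPCAM lies at contacts between epithelial cells, and CD44 and ALCAM are found at the basal and lateral surfaces.

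Values are log2 ratios of H460C or H460R to H460, on which 1 is a doubling, averaged over both dye orientations of a sample. Where 4 arrays of a population are listed, their order is replicate 1 in Cy3, replicate 1 in Cy5, replicate 2 in Cy3 and replicate 2 in Cy5. The RNA came from whole cultures, so a change in the share of cells with a transcript and a change in its amount per cell cannot be told apart. The labels name 1 H460 RNA sample, so a ratio was tested against 0 and the spread of H460 itself is left out. The H460C samples could not be distinguished beyond hybridization noise: their difference measured in Cy3 and again in Cy5 correlated across 24642 probes with r = -0.0106, compared to 0.267 across 25713 probes for H460R. They are counted as 1 sample here and carry no SD, while H460R is given with its mean ± SD (n = 2). The tests entered both H460C ratios, so their p-values leave out the spread between H460C cultures. The limma tests pooled the spread of both populations, so their p-values for H460R and for the direct comparison also draw on the H460C pair. Between 25868 and 28499 of 41000 probes were well above background in the studied channel of an array. One array stood apart. On the array of H460C replicate 1 in Cy5, 742 probes departed by more than 0.6 (log2) from the other H460C array in Cy5, compared to 14 between the H460C arrays in Cy3 and 96 and 244 between the H460R arrays. Each population lay on its own slide, and slide and population cannot be told apart. Keratin genes KRT8, KRT18 and KRT19 were well above background on every array in every population. CDH1, the epithelial cadherin, was well above background on 4 of 4 arrays in H460C, and on 0 of 4 in H460R and 0 of 8 in H460. PTPRC, which defines leukocytes, was above background in no sample, whereas CD3E and CD14 were on 4 of 4 arrays in both populations.

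H460C and H460R differed in which surface markers moved most, as they did for many genes. Limma called 55.9% of all gene names between them at an adjusted p of 0.05. In H460C, EPCAM was 2.57-fold higher than in H460, and CD44 and NT5E were 1.65-fold and 1.84-fold lower. In H460R, ALCAM was 2.50-fold higher, and none of the other markers moved by more than 1.19-fold at its brightest probe. The NT5E probes disagreed in H460R, where the brightest was 1.16-fold lower and the dimmest 2.34-fold higher. By limma, which tests each ratio with a spread shared between genes, 2 of 7 markers were higher and 3 lower in H460C. In H460R, 1 was higher and 3 were lower. These counts use the brightest probes, and NT5E was lower in H460R at that probe only. Calls of this kind were common on these arrays. Limma called 71% of all 20290 gene names in H460C (36.5% higher, 34.5% lower) and 69% in H460R (36.5% higher, 32.5% lower) at an adjusted p of 0.05, so 5 and 4 of 7 markers are shares near those of all genes. With the Rank Products method, which ranks each ratio among all probes, no marker was called at an FDR of 0.05 in either population. Of all gene names, it called 1.06% in H460C (0.557% higher, 0.503% lower) and 0.971% in H460R (0.493% higher, 0.478% lower). At an unadjusted Rank Products p below 0.05, EPCAM was higher and CD44 and NT5E were lower in H460C, where 9.47% of all gene names were higher and 9.68% lower. EPCAM passed the background filter only through H460C, where it was high. Its calls, and the counts that include it, carry that selection. ALCAM was higher and 0 markers were lower in H460R, compared to 9.37% and 9.22% of all gene names. The median log2 ratio of the 7 markers was -0.04 in H460C and -0.14 in H460R, compared to -0.00037 and 0.010 over all gene names.

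**Figure D1:**
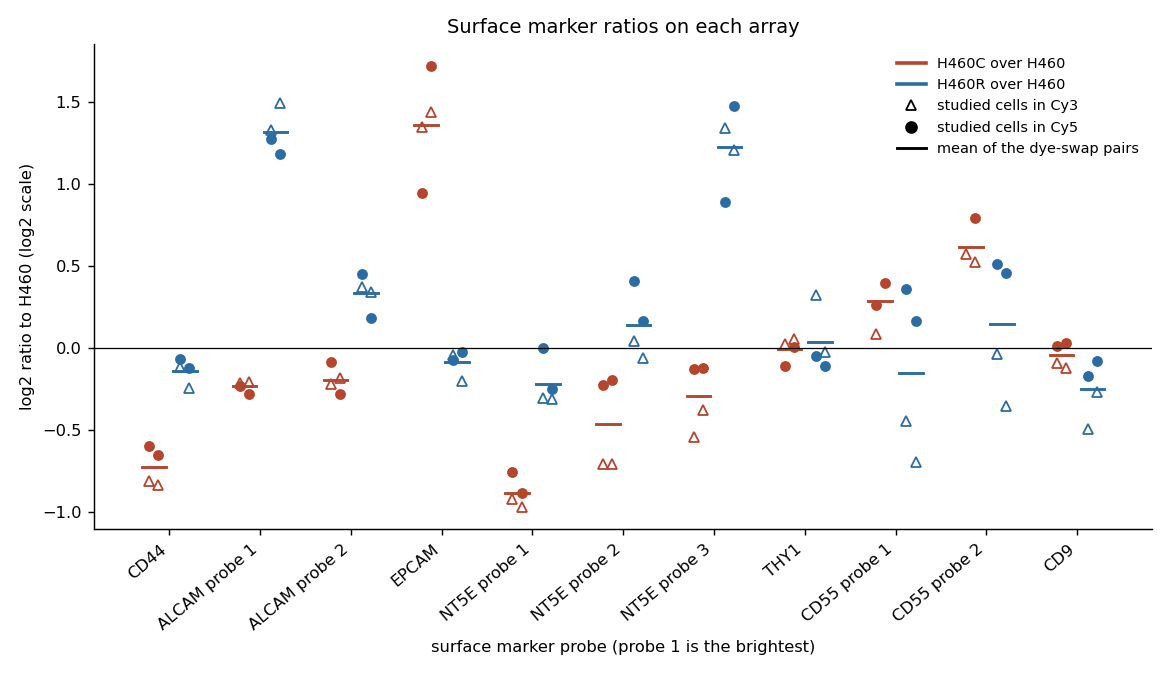
The log2 ratio to H460 (vertical axis) of each marker probe on each array, for H460C (red) and H460R (blue). Open triangles are arrays with the studied cells in Cy3, filled circles in Cy5, and bars the mean of the dye-swap pairs. ALCAM probe 1 lies between 1.18 and 1.49 on the H460R arrays and EPCAM between 0.95 and 1.72 on the H460C arrays, while CD55 takes both signs in H460R according to the dye.

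Promoters are shown for ALCAM, which was higher in H460R, and for CD44 and NT5E, which were lower in H460C. No window for EPCAM or THY1 was in the table used here. The sequences are RefSeq's for GRCh38.p14, the 250 bases before the transcription start, 5′ to 3′, with matches to the motifs searched in capitals.
CD44, chr11:35138921-35139170, plus strand: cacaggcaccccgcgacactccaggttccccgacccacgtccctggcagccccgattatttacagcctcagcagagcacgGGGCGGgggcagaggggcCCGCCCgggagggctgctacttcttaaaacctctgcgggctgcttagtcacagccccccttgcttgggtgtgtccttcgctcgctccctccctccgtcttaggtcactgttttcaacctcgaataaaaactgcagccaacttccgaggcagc
NT5E, chr6:85449833-85450082, plus strand: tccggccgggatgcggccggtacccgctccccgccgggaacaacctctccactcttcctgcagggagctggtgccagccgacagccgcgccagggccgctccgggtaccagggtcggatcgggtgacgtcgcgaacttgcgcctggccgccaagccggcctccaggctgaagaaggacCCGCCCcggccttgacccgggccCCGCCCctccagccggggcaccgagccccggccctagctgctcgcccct
ALCAM, chr3:105366659-105366908, plus strand: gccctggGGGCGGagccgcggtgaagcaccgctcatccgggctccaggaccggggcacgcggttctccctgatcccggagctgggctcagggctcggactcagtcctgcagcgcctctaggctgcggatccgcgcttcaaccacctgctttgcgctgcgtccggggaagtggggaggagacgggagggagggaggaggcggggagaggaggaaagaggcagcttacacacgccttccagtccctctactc
The motifs searched on both strands were the GC box (GGGCGG), the CCAAT box (CCAAT), the TATA box (TATAAA), an AP-1 site (TGANTCA) and an EGR1 site (GCGNGGGCG, which can overlap a GC box). The CD44 and NT5E windows held 2 GC boxes each and the ALCAM window held 1. None of these 3 windows held any of the other motifs. A GC box was present in 42.6% of all 35116 windows, a CCAAT box in 32%, a TATA box in 10.7%, an AP-1 site in 6.57% and an EGR1 site in 8.41%. Of 15 windows of 7 marker genes, 9 held a GC box and 0 a TATA box. The base composition of the shown windows was 62.4% G or C for CD44, 75.2% for NT5E and 68.8% for ALCAM. A match describes the letters only.

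CD44 is the receptor for hyaluronan and links the matrix to the cortical cytoskeleton. It was read by probe A_23_P24870 (NM_000610), which is spotted 10 times on each array. On the H460C arrays CD44 had log2 ratios of -0.81, -0.60, -0.83 and -0.65. On the H460R arrays its ratios were -0.12, -0.06, -0.24 and -0.12. All 8 arrays were below H460, and the 4 H460C arrays lay below the 4 H460R arrays without overlap. The mean ratio in H460C was -0.72 (SE 0.044, adjusted p = 0.000101 by limma). In H460R it was -0.14 ± 0.065 (adjusted p = 0.0378 by limma), a call that was lost without H460R replicate 2 (-0.09, adjusted p = 0.198) or with the H460C samples averaged into 1 (adjusted p = 0.0636). The populations differed by -0.59 (95% interval -0.74 to -0.43, adjusted p = 0.00113 by limma), so CD44 was 1.5-fold lower in H460C than in H460R. In the deposited table of processed ratios, the probe averaged -0.82 in H460C and -0.22 in H460R. The order of CD44 levels was therefore H460, H460R and H460C from high to low, with the step from H460 to H460R not holding in every alternative. The median channel intensity (log2) of CD44 was 13.14 in H460, 12.90 in H460R and 12.50 in H460C. The H460 median pools both slides, with an H460 mean of 13.205 on the H460C arrays and 12.98 on the H460R arrays.

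NT5E is the ectoenzyme that makes adenosine from AMP at the cell surface. Its 3 probes carry the same accession (NM_002526). At the brightest one, A_24_P354715, the ratios were -0.92, -0.76, -0.97 and -0.88 on the H460C arrays. On the H460R arrays they were -0.30, 0.00, -0.31 and -0.25. NT5E was thus lower than in H460 on every H460C array, and the populations did not overlap. The mean in H460C was -0.88 (SE 0.051, adjusted p = 8.97e-05 by limma), and in H460R it was -0.22 ± 0.092 (adjusted p = 0.0134 by limma, and 0.107 without H460R replicate 2). The difference of H460C minus H460R was -0.67 (95% interval -0.85 to -0.48, adjusted p = 0.00120 by limma). At probe A_23_P111260 NT5E was also lower in H460C (-0.46, adjusted p = 0.000902 by limma) and stood at 0.14 ± 0.12 in H460R (adjusted p = 0.0659 by limma). The dimmest probe, A_24_P316430, gave -0.29 in H460C and 1.23 ± 0.16 in H460R, where it was called higher by limma (adjusted p = 8.91e-05).

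The NT5E probes therefore took the same sign in H460C and opposite signs in H460R. All 4 H460R arrays were above H460 at the dimmest probe (1.34, 0.89, 1.21 and 1.48), whereas 3 of 4 were below it at the brightest one. The range between NT5E probes was 1.44 on the log2 scale in H460R, wider than in 98.9% of the 4031 genes with more than 1 probe. Over those genes the median range was 0.26, and 10.3% had probes called in opposite directions in H460R. With the mean over its probes, NT5E was at 0.38 in H460R (adjusted p = 0.000530 by limma), the reverse of the brightest probe. The difference between the populations had one sign at every probe, at -0.67, -0.60 and -1.52. The deposited table of processed ratios showed the same split in H460R, with means of -0.26, 0.09 and 1.19 at the 3 probes. Which transcripts each probe reads was not examined here. NT5E was thus lowest in H460C at all 3 probes, and the order of H460 and H460R depended on the probe.

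ALCAM binds CD6 and itself across cell contacts. It was read by probe A_23_P41227 (NM_001627). Its ratios on the H460R arrays were 1.33, 1.27, 1.49 and 1.18. On the H460C arrays they were -0.21, -0.23, -0.20 and -0.28. ALCAM was above H460 on every H460R array and below it on every H460C array. The mean was 1.32 ± 0.027 in H460R (adjusted p = 4.13e-05 by limma, Rank Products FDR = 0.133, exact p = 0.00170) and -0.23 in H460C (adjusted p = 0.00362 by limma). The populations differed by -1.55 (95% interval -1.69 to -1.41, adjusted p = 7.67e-05 by limma), and ALCAM was 2.93-fold higher in H460R. With median centring of the arrays the H460C value was -0.08 (adjusted p = 0.682), and the H460R value was called by limma in 15 of 15 alternatives, from 0.83 to 1.48. A dimmer probe for the same accession, A_32_P74643, gave 0.34 ± 0.11 in H460R and -0.19 in H460C, with a difference of -0.53 (adjusted p = 0.00293 by limma). Both probes agreed in sign, and in H460R their range of 0.98 was wider than in 94.4% of genes with more than 1 probe. The deposited processed ratios averaged 1.27 and 0.31 in H460R at these probes, and -0.29 and -0.22 in H460C.

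**Figure D2:**
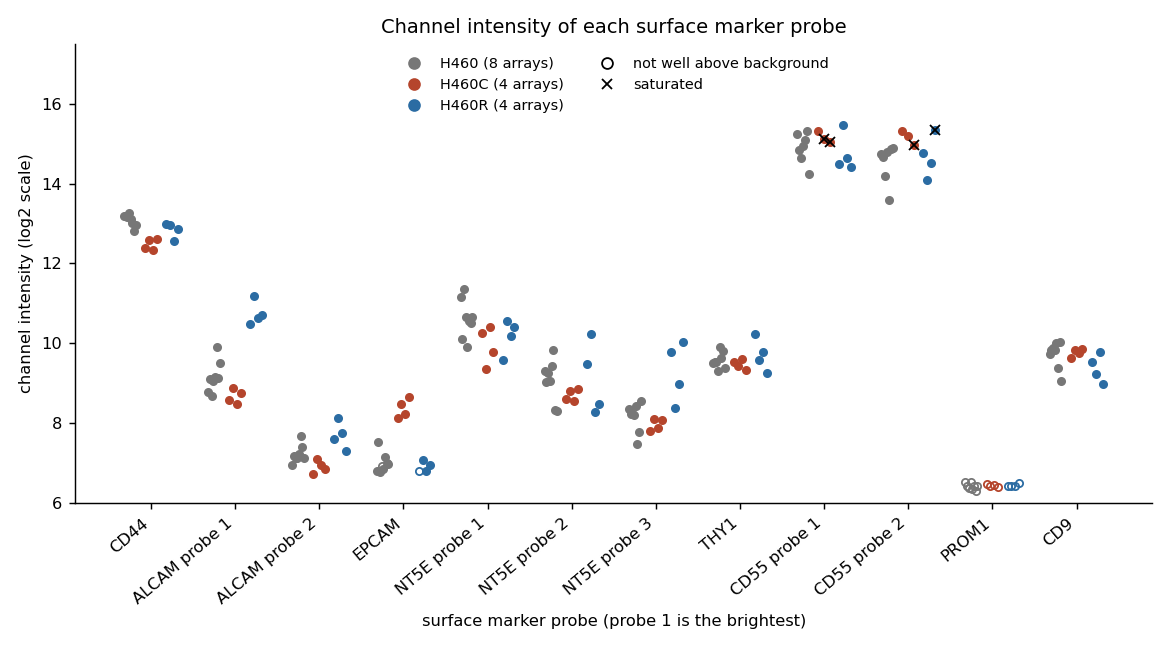
The normalized channel intensity on the log2 scale (vertical axis) of each marker probe in H460 (gray, 8 arrays), H460C (red) and H460R (blue, 4 arrays each). Open circles are spots not well above background and crosses are saturated spots. PROM1 is open in all 16 channels, CD55 reaches saturation, and the H460R points of ALCAM probe 1 (10.49 to 11.18) lie above those of H460 (8.69 to 9.90).

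EPCAM, the epithelial cell adhesion molecule, moved in the opposite sense to CD44 and NT5E in H460C. It was read by probe A_23_P91081 (NM_002354), near the background. It was well above background on 4 of 4 arrays in H460C, 3 of 4 in H460R and 7 of 8 in H460. EPCAM therefore entered the tests only through H460C, the population where it was high, and its p-values carry that selection. The H460C ratios were 1.35, 0.95, 1.44 and 1.72, with the lowest on the array that stood apart. On the H460R arrays EPCAM had ratios of -0.04, -0.07, -0.20 and -0.03. H460C and H460R did not overlap. EPCAM averaged 1.36 in H460C (SE 0.10, adjusted p = 0.000197 by limma, Rank Products FDR = 0.199, exact p = 0.00465) and -0.09 ± 0.039 in H460R (adjusted p = 0.490 by limma). The difference was 1.45 (95% interval 1.08 to 1.82, adjusted p = 0.000969 by limma), or 2.73-fold. Without H460C replicate 1 the H460C ratio was 1.58, and without replicate 2 it was 1.15. The H460C value was 1.65 without background subtraction and 1.89 with a normexp offset of 0. The ratio that the scanner's own software wrote, which differs in background correction and in normalization, gave 3.03 in H460C (adjusted p = 0.000228 by limma) and -0.44 in H460R (adjusted p = 0.0265 by limma). In the deposited processed ratios EPCAM averaged 1.34 in H460C and -0.11 in H460R. The last value and the -0.14 without background subtraction were called by limma in H460R (adjusted p = 0.0239 and 0.0136). H460C thus had the highest EPCAM level, and the call between H460 and H460R depended on the processing.

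The levels of the other 3 measured markers differed less from H460. CD55, decay-accelerating factor, protects cells from complement, and it has 2 probes (NM_000574). At A_24_P188377 the H460C ratios were 0.09, 0.26 and 0.40, with the spot of replicate 2 in Cy3 left out as an outlier. On the H460R arrays CD55 stood at -0.45, 0.36, -0.70 and 0.17. In H460R the sign followed the dye, negative with H460R in Cy3 and positive with H460R in Cy5. The mean was 0.29 in H460C (adjusted p = 0.0209 by limma) and -0.15 ± 0.16 in H460R (adjusted p = 0.136 by limma), and the difference was 0.44 (95% interval 0.16 to 0.72, adjusted p = 0.0210 by limma). With median centring the H460C value was 0.72 (adjusted p = 8.39e-07 by limma) and the difference was 0.87 (adjusted p = 6.44e-05 by limma). In that setting limma gave every gene the same spread, so these p-values leave out the spread of CD55 itself. Without H460C replicate 2 the value in H460C was 0.18 (adjusted p = 0.160), and the difference was 0.33 without that replicate (adjusted p = 0.0559) and without H460R replicate 2 (adjusted p = 0.109). The second probe, A_23_P374862, gave 0.62 in H460C over 3 arrays (adjusted p = 0.000425 by limma), with replicate 1 in Cy5 left out, and 0.15 ± 0.13 in H460R (adjusted p = 0.0729 by limma). The channel of the studied cells was saturated on 2 arrays at the first probe (both of H460C, in Cy5) and on 3 at the second. The CD55 ratios of those arrays are limited by the scanner. At the first probe the only unsaturated H460C ratio was 0.09. With outlier spots kept, its H460C value was 0.20 (adjusted p = 0.0308 by limma) and the difference was 0.35 (adjusted p = 0.0184 by limma). With only the Cy5 orientation (the studied cells in Cy5), CD55 was at 0.27 in H460R (adjusted p = 0.0338) and the populations differed by 0.06 (adjusted p = 0.680). CD55 was above H460 on every H460C array that was kept, at both probes, though some of these were saturated. At the first probe replicate 2 was left with Cy5 alone, so dye was not balanced there. No order of H460 and H460R was shown.

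CD9 was read by probe A_23_P76364 (NM_001769). On the H460R arrays its ratios were -0.49, -0.17, -0.27 and -0.08, and on the H460C arrays -0.09, 0.01, -0.12 and 0.03. Every H460R array was thus below H460, and the H460C arrays fell on both sides of it. CD9 was lower in H460R (-0.25 ± 0.11, adjusted p = 0.00775 by limma, but -0.12 and 0.127 with the Cy5 orientation alone) and was at -0.04 in H460C (adjusted p = 0.494 by limma). The difference between the populations, 0.21 (95% interval 0.026 to 0.39), missed the threshold (adjusted p = 0.0564 by limma) and passed it in 6 of 16 alternatives. THY1, a lipid-anchored glycoprotein of the immunoglobulin superfamily, was read by probe A_23_P36364 (NM_006288). Its values were 0.03, -0.11, 0.06 and 0.01 on the H460C arrays, and 0.33, -0.05, -0.02 and -0.11 on the H460R arrays. THY1 showed no difference beyond the spread, with means of -0.0028 in H460C (95% interval -0.16 to 0.15) and 0.04 ± 0.15 in H460R (95% interval -0.12 to 0.19), and limma called it in 0 of the 15 or 16 alternatives run for each comparison. The deposited processed ratios averaged -0.09 and -0.31 for CD9, and -0.07 and -0.02 for THY1, in H460C and H460R.

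PROM1 was read by probe A_23_P258463 (NM_006017). Its channel intensity on the log2 scale ran from 6.39 to 6.48 in H460C, from 6.42 to 6.50 in H460R and from 6.31 to 6.52 in H460. The probe was well above background on 0 of 4 arrays in H460C, 0 of 4 in H460R and 0 of 8 in H460, and the ranges of the 3 populations overlap. No fold is given, since a PROM1 difference was not detectable at this signal. CD24, a heavily glycosylated anchored mucin, has no value here.

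**Figure D3:**
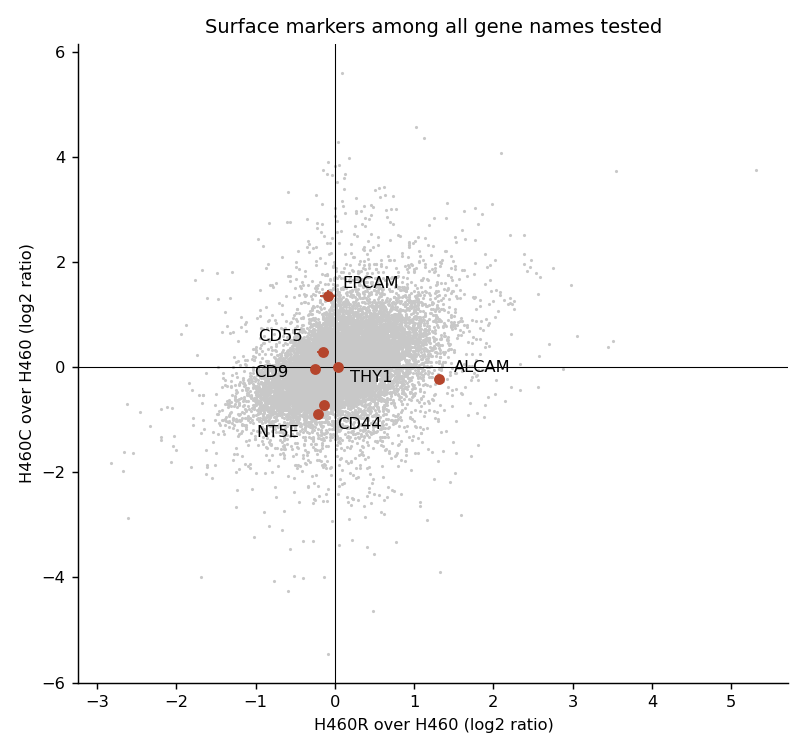
The log2 ratio in H460R (horizontal axis) against that in H460C (vertical axis) for all 20290 gene names tested (gray points) and for the 7 measured markers at their brightest probe (red, with the limma SE). EPCAM lies at 1.36 above the horizontal zero line and ALCAM at 1.32 to the right of the vertical one, while CD9, CD55 and THY1 lie within the cloud near zero.

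Placed among all probes tested, EPCAM had percentile rank 97.7 in H460C and 39.2 in H460R. ALCAM had rank 98.7 in H460R and 26.4 in H460C. CD44 and NT5E had ranks 6.42 and 4.17 in H460C, and 33.0 and 25.1 in H460R. The dimmest NT5E probe had rank 98.3 in H460R. The 4 arrays of a population had one sign for 4 of 7 markers in H460C, namely CD44, ALCAM, EPCAM and NT5E, compared to 62.2% of all gene names. In H460R this held for CD44, ALCAM, EPCAM and CD9, compared to 58.2%. The arrays of the populations did not overlap for 4 of 7 markers (CD44, ALCAM, EPCAM and NT5E), compared to 36.2% of all gene names. In the direct comparison, where the H460 RNA cancels, 5 of 7 markers were called by limma. EPCAM and CD55 were higher and CD44, ALCAM and NT5E lower in H460C. The counts in this paragraph include EPCAM, which passed the background filter only through H460C. Limma called 55.9% of all gene names in that comparison (28% higher, 27.9% lower). At the brightest probes, a value over 1 in size that also passed limma was found for EPCAM in H460C (8.36% of all gene names). It was found for ALCAM in H460R (4.97%) and for both in the direct comparison (8.05%). The dimmest NT5E probe had such values in H460R (1.23) and in the direct comparison (-1.52). When limma tested against a change of 1 instead of 0, ALCAM was called in H460R and in the direct comparison, and no marker was called in H460C.

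Genes with ratios most like those of each marker were found by Euclidean distance over the 4 sample ratios, as a description. The nearest to CD44 were PTPN14 (distance 0.033), OLFML2A (0.081) and IKBKB (0.089). SEMA3C (0.076) and ATG16L2 (0.090) were nearest to ALCAM, and POMC (0.12) and BST2 (0.15) to EPCAM. OSBPL6 (0.075) and MRPL37 (0.081) were nearest to NT5E, and MYEOV (0.078) to CD55. CDKN2C (0.040) came nearest to CD9, and KNG1 (0.023) to THY1.

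Genes that work beside the markers were read from 6 lists of 81 genes, of which 78 were matched and 58 tested. The counts of each list stand beside limma calls over all gene names of 36.5% higher and 34.5% lower in H460C. In H460R these shares were 36.5% and 32.5%. In the CD44 axis, which makes, cuts and binds hyaluronan or carries the CD44 tail to actin, limma called 7 of 14 tested genes higher and 1 lower in H460C, and 4 higher and 6 lower in H460R. HAS3, among those higher in H460C, entered the tests only through H460C. The list's median log2 ratio was 0.18 in H460C and -0.0054 in H460R, where it was 0.11 with median centring. CEMIP, which depolymerizes hyaluronan, was 5.11-fold higher in H460C (Rank Products FDR = 0.0408), with ratios from 2.29 to 2.41 on its arrays. In H460R its value was 0.20 ± 0.33 (adjusted p = 0.156 by limma). HYAL3, a member of the hyaluronidase family, rose in H460C (1.00) and fell in H460R (-0.80 ± 0.11), a difference of 1.79 (adjusted p = 0.000102 by limma). Both genes were named for the size of their difference. HYAL2, another hyaluronidase, was at -0.09 in H460C (adjusted p = 0.179 by limma), and HMMR, another hyaluronan receptor, was at 1.14 (adjusted p = 0.000293 by limma), both named after their values were seen.

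Among partners of EPCAM and ALCAM, 3 of 8 tested genes were called higher and 3 lower in H460C, and 2 and 2 in H460R, with medians of 0.0021 and -0.0087 whose signs turned in several alternatives. CDH1, among those called higher in H460C, was measured in H460C only, as given above, and entered the tests only through it. CDH1 was at least 1.57-fold higher there than in H460 and at least 1.73-fold higher than in H460R. Where one RNA is below background, the fold is a lower bound, and dye bias could affect it. It was taken against the undetected signal or the dimmest signal that passed the background test in that channel, whichever was larger. Bounds of H460C over H460R compare channel intensities of different arrays. FHL2, a cofactor that binds the cleaved tail of EPCAM, was lower in H460C (-0.91, adjusted p = 4.89e-05 by limma). In H460R it was at 0.26 ± 0.052, but this sign turned in the Cy3 arrays alone (-0.12, adjusted p = 0.0324). CTNNB1, the catenin that binds CDH1, was named after its values were seen and was lower in both populations, at -1.46 in H460C (adjusted p = 2.32e-05 by limma) and -0.91 ± 0.065 in H460R (adjusted p = 7.36e-05 by limma).

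Of 13 other tetraspanins and tetraspanin partners, 9 were called higher and 0 lower in H460R by limma, with a median of 0.24 (6 and 0 with median centring), whereas 3 were higher and 5 lower in H460C, with a median of -0.05. Over all gene names, limma called 36.5% higher and 32.5% lower in H460R, and 36.5% and 34.5% in H460C. At a Rank Products FDR of 0.05, 0 were called in either population, and at an unadjusted Rank Products p below 0.05, 3 were higher in H460R, where 9.37% of all gene names were. In the Cy5 orientation alone, limma called 4 of these genes higher and 2 lower in H460R, with a median of 0.078, and CD9 was not called. TSPAN8 was 2.53-fold higher in H460R (1.34 ± 0.11, adjusted p = 7.97e-05 by limma). In H460C its value was -0.05 (adjusted p = 0.520 by limma), with 1 array left out as an outlier. TSPAN4 fell in H460C (-1.50, adjusted p = 1.85e-05 by limma) on all 4 arrays. Its H460R value, 0.20, was -0.018 in the Cy5 arrays alone (adjusted p = 0.807).

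Beside CD55, 5 complement genes were tested. Over all gene names, limma called 36.5% higher and 34.5% lower in H460C, and 36.5% and 32.5% in H460R. Of the 5 genes, it called 3 higher and 2 lower in H460C, and 4 higher and 0 lower in H460R, with medians of 0.12 and 0.37. These counts were unstable, with 2 higher and 0 lower in H460R without either of its replicates, and 2 higher and 2 lower among 4 genes in the Cy3 orientation. The H460C median ran from -0.054 with a stricter filter to 1.15 in the Cy3 orientation. C3, the central complement component, was 8.39-fold higher in H460C (Rank Products FDR = 0.0131), at 3.48, 2.22, 3.66 and 2.91 on the arrays. In H460R its value was 0.37 ± 0.12, which was -0.045 in the Cy5 arrays alone (adjusted p = 0.834). CFB, which forms the alternative pathway convertase with C3, was at 2.02 in H460C (adjusted p = 0.000117 by limma, Rank Products FDR = 0.0771). In H460 it was well above background on 2 of 8 arrays, so this is a fitted value, and CFB entered the tests only through H460C. CFB was not well above background on any H460R array, and was at least 4.82-fold higher in H460C than in H460R.

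Beside NT5E, 3 of 6 tested genes of adenosine handling were called higher and 0 lower in H460C, and 2 higher and 2 lower in H460R, with medians of 0.22 and -0.03 (0.044 with median centring). ADORA2B, an adenosine receptor of low affinity, was higher in both populations, at 0.83 in H460C and 0.62 ± 0.045 in H460R, and the call on their difference (0.21) held in 7 of 16 alternatives. SLC29A2, a nucleoside transporter, was at 0.34 in H460C and -0.19 ± 0.075 in H460R, but was at -0.013 in H460C in the Cy5 arrays alone (adjusted p = 0.864). ENTPD1, which makes the AMP that NT5E consumes, was above background on no array.

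Among 12 tested genes for other stem cell surface markers, limma called 2 higher and 6 lower in H460C, and 10 higher and 0 lower in H460R, with medians of -0.16 and 0.33. Its shares over all gene names were 36.5% higher and 34.5% lower in H460C, and 36.5% and 32.5% in H460R. With median centring the H460C median was 0.059, with 3 higher and 3 lower, and in H460R 6 were higher and 0 lower. Without H460R replicate 1, 5 were higher and 1 was lower in H460R, and without replicate 2, 6 were higher and 0 lower. At a Rank Products FDR of 0.05, 0 of the 12 were called in H460R and 2 were higher at an unadjusted p below 0.05, compared to 9.37% of all gene names. CXCR4, the receptor for CXCL12, and CD36 were the 2 genes called higher in H460C. CD36, named after its values were seen, was at 1.52 in H460C (adjusted p = 0.000487 by limma) and 0.91 ± 0.36 in H460R. In H460 CD36 was well above background on 4 of 8 arrays, so these are fitted values. CXCR4 was at least 7.79-fold higher in H460C than in H460 (Rank Products FDR = 0.0131). It was well above background on 4 of 4 arrays in H460R, at least 1.39-fold higher than in H460, a bound equal to the fitted fold. The limma call in H460R (0.48, adjusted p = 0.0416) was lost in the Cy5 orientation (adjusted p = 0.230) and without either H460R replicate (0.51 and 0.44). CXCR4 was not well above background in H460 on any array, so each ratio has a reference at background, and the fitted difference between H460C and H460R was 2.57 (adjusted p = 0.000622 by limma). ITGB1, the integrin beta chain shared by many matrix receptors, was at -0.64 in H460C and 0.33 ± 0.055 in H460R, a difference of -0.97 (adjusted p = 0.000477 by limma). Its call in H460R was lost in the Cy5 orientation (0.073, adjusted p = 0.538), with median centring (adjusted p = 0.0735) and without H460R replicate 1 (adjusted p = 0.0506). ABCG2, a drug efflux pump named here after its values were seen because the study assayed it by RT-PCR, was at -0.28 in H460C (adjusted p = 0.00645 by limma) and 0.22 ± 0.012 in H460R (adjusted p = 0.0181 by limma).

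**Figure D4:**
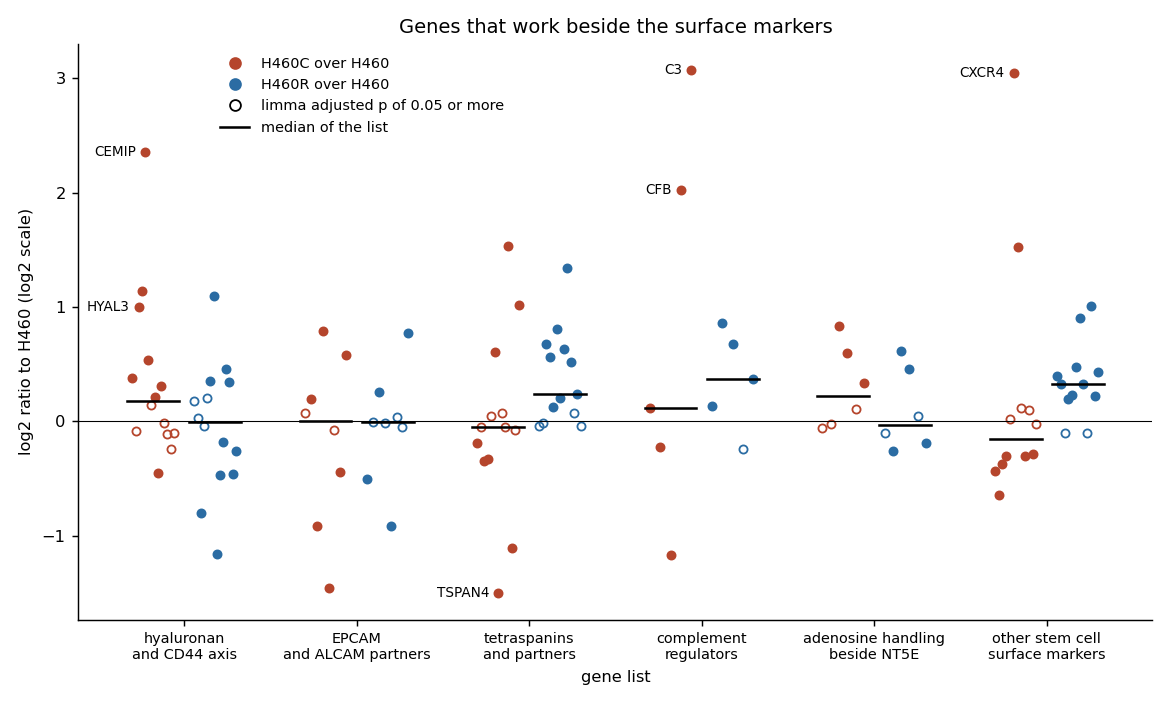
The log2 ratio to H460 (vertical axis) of each tested gene of the 6 lists in H460C (red) and H460R (blue). Filled circles passed a limma adjusted p of 0.05, open circles did not, and black bars are medians. In the list of other stem cell surface markers the median is -0.16 in H460C (0.059 with median centring) and 0.33 in H460R, with CXCR4 far above the rest in H460C.

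**Figure D5:**
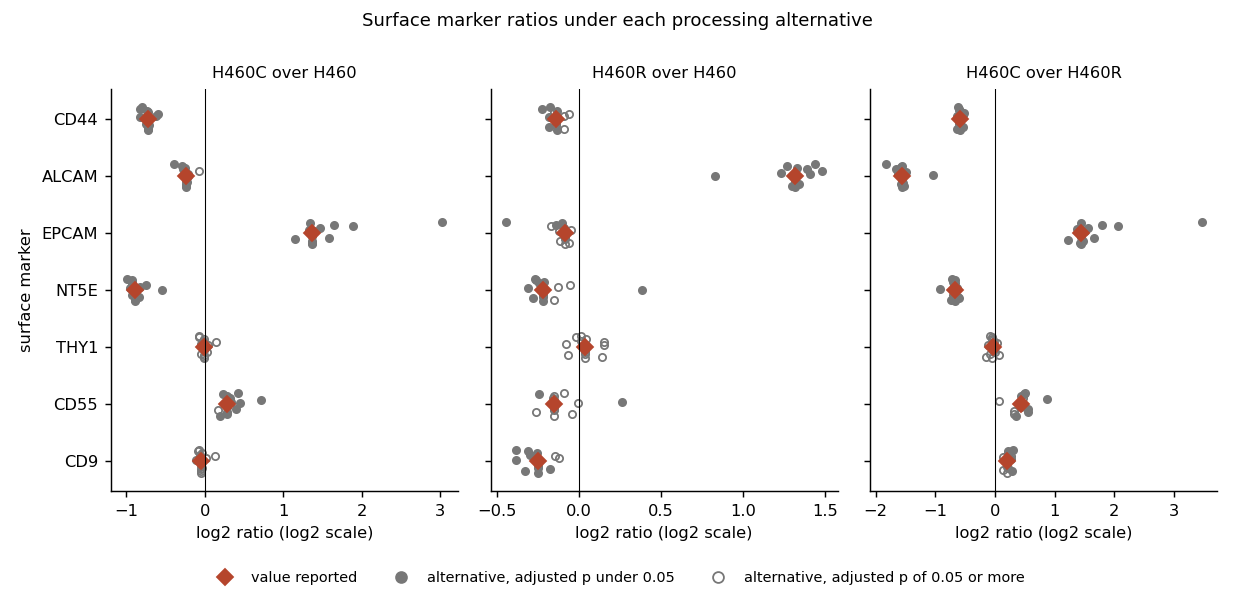
The log2 ratio (horizontal axes) of each measured marker in the 3 comparisons, as reported (red diamonds) and under each processing alternative (gray circles, open where the adjusted p was 0.05 or more). EPCAM spreads from 1.15 to 3.03 in H460C and ALCAM from 0.83 to 1.48 in H460R, while NT5E and CD55 fall on both sides of zero in H460R.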

How the data were processed

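RNA of H460C, H460R and H460 cells was read on 8 dual-color arrays, which the authors extracted with Feature Extraction, version 10.1.1.1. The values used were the deposited intensities (the median of each spot and of its surroundings), not yet normalized. Alternatives were the deposited log10 ratio of red to green and the authors' processed log2 ratios of studied cells to H460, whose background correction and normalization are not given in the sources used here. The processed columns had medians of -0.02 to 0 and correlated with the scanner ratios at r from 0.949 to 0.997, which fixes their scale and direction but not their centring. The number of columns without a sample was 0. In 1 array the log10 ratios had lost their decimal points and were divided by 10 to the power of 9.

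After normexp correction (offset 50), control and outlier spots were dropped, loess was run within arrays, and 43376 spots gave 41000 probes. Probes entered the tests if 0.5 or more of their spots passed the background test on all arrays of a population in some channel (26046, or 26014 with all ratios). Where an outlier was dropped, the dye-swap pair rests on 1 array. For 23958 probes the accession gave a current symbol in RefSeq (GRCh38.p14), used for names and promoters, as the design itself follows hg18.

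Rank Products, the methods' test, used the exact distribution of a product of 2 ranks. Limma used 4 ratios (with 2 residual and 3.27 prior degrees of freedom, the latter infinite with median centring, where all genes share the same spread), two-sided. Both were adjusted by Benjamini-Hochberg over all kept probes and tested on simulated data, in R 4.3.3 with limma 3.58.1 and data.table (version 1.17.8). A gene was read at its brightest probe. All probes of the markers are named and, from each list, genes called by Rank Products and the 2 with the largest called difference between H460C and H460R. Markers and lists were chosen with earlier results of these data known. The number of arrays limits the precision, and p-values measure only the spread between these samples, since no source says that they came from separate cultures. Alternatives covered background correction, centring, probe filters, single dye orientations, probe rules, a minimum change, averaged H460C samples, a replicate block, samples left out and, added after seeing the data, outlier spots kept.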

Additional observations from a re-analysis of the deposited data

Results flagged for a closer look

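The difference of H460C minus H460R (log2) passed limma's test of the difference itself for 5 of 7 measured markers at their brightest probe. It was 1.45 for EPCAM (kept by the filter only through H460C) and 0.44 for CD55 (2 of 3 kept H460C arrays saturated). For CD44 it was -0.59, for NT5E -0.67 and for ALCAM -1.55. The dimmer probes of these genes also passed, at 0.47 for CD55 (A_23_P374862), -0.53 for ALCAM (A_32_P74643), and -0.60 and -1.52 for NT5E (A_23_P111260 and A_24_P316430). Every dimmer probe thus had the sign of its brightest one, though the NT5E probes took opposite signs in H460R against H460.

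Genes of the lists were named for the size of this difference, and their values describe that choice. C3 (2.70), CXCR4 (2.57), CFB (2.27), CEMIP (2.15), HYAL3 (1.79), CDH1 (0.80), SLC29A2 (0.52) and ADORA2B (0.21) had positive differences. For CDH1 and CFB, H460R was not above background. For CDH1 and CXCR4, H460 was not, and for CFB it was on 2 of 8 arrays, so these are fitted values and not measured folds. CDH1 and CFB entered the tests only through H460C. The ADORA2B call held in 7 of 16 alternatives and was lost without any 1 of the 4 samples (adjusted p from 0.0550 to 0.167) and with the H460C samples averaged (0.107), and that of SLC29A2 was lost in the Cy5 orientation (0.0696). TSPAN4 (-1.70), TSPAN8 (-1.39), FHL2 (-1.17) and ITGB1 (-0.97) were higher in H460R. Each population lay on its own slide, and slide and population cannot be told apart. Dixon's test for an outlying array found 0 in 22 groups of 4 arrays at the marker probes.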

How the results depend on the processing

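Rank Products called 0 markers in each of 12 alternatives in both populations. By limma, 4 markers were called in H460R, but 1 with median centring, 2 with only the arrays that had the studied cells in Cy5 (the Cy5 orientation) and 1 with a minimum log2 change of 1, which left 0 in H460C and 1 in the direct comparison. The most called in H460R was 6, with the deposited processed ratios, where EPCAM and CD55 were added. With single samples left out, limma called 4 to 5 in H460C, 2 to 4 in H460R (2 without H460R replicate 2) and 4 to 5 in the direct comparison. Among values called with or without the alternative, signs turned in the Cy5 orientation for CD55 in H460R (0.27), C3 in H460R (-0.045), TSPAN4 in H460R (-0.018) and SLC29A2 in H460C (-0.013). They also turned in the Cy3 orientation for FHL2 in H460R (-0.12), and with the mean over probes for NT5E in H460R (0.38). The cause was not tested. Of the markers' values under alternatives, 276 kept their side of the threshold without a reversal of a call, 31 lost the call, 10 gained it and 2 reversed. An uncalled value that changed sign and stayed uncalled counts among the 276, as for THY1 in H460C (0.15 with median centring). With a minimum change of 1, limma called 855, 297 and 688 gene names (14408, 13994 and 11351 otherwise), and with median centring 9619, 8757 and 6212. Same-numbered samples deviated together with r = 0.206 over only 2 pairs, so the numbers are not taken as pairing. With the replicate block, 6 markers were called in the direct comparison in place of 5, with CD9 added (0.21, adjusted p = 0.0400 by limma). Signal over background limits PROM1, which enters only without a filter, and EPCAM, CDH1 and CFB.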
